A study of Mus musculus with 12 samples.

Results

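H3K27me3 regions that carried no H3K4me3 peak were described in mouse mammary tumour organoids. Peaks of the 6 H3K27me3 libraries were merged wherever they overlapped by at least 1 bp on chromosomes 1 to 19 and X, and a merged region was kept when no peak of any of the 6 H3K4me3 libraries overlapped it. This gave 2828 regions of 4183 in all (67.6%), and the other 1355 overlapped H3K4me3. The organoids were derived from the PyMT tumour, in which the polyoma middle T oncogene drives mammary cancer. The labels name no promoter for it. The organoids are labelled wild type, breast cancer and tumoroids or spheroids, and every library was taken at day 3 after treatment. The 3 treatments were Ctrl, SR2 and THC, with 2 libraries for each treatment and mark, 12 in all, and the replicate number is also the batch in the labels. The title of the series names modulation of the cannabinoid receptor CB2R, for which THC, the main psychoactive cannabinoid, is a ligand. The labels do not spell out the name SR2. They also do not say whether replicates came from separate cultures or animals, so each p-value reflects only how these samples vary, which may be technical variation.

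H3K27me3 is written by the EZH2 or EZH1 subunit of Polycomb repressive complex PRC2 and is read by CBX proteins of PRC1. Polycomb silences genes that other cell types use, first of all the Hox clusters and other transcription factor genes of the embryo, often over CpG-rich DNA. H3K4me3 marks active or poised promoters, and regions with both marks are known as bivalent, so a region with H3K27me3 alone lacks the poised part of that pattern. In CUT&Tag an antibody brings a transposase to the mark in intact cells, and the peaks are the places where its fragments pile up. A peak list cannot tell fewer marked cells from less mark in each cell.

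Many regions that several libraries shared lay in the Hox clusters, and the miR-196 sequences are shown because their genes lay in such a region or beside one. The miR-196 family consists of Hox-cluster microRNAs known to target Hox messengers. The mature sequences are from RefSeq (GRCm38.p6, the assembly of mm10), and capitals mark the seed, bases 2 to 8, which the 2 share.
mmu-miR-196a-5p (chr11:96265187-96265208, plus strand): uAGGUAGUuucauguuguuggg
mmu-miR-196b-5p (chr6:52230129-52230150, minus strand): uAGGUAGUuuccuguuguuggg
The Mir196a-1 gene lay 191 bp from a region of 1097 bp that was marked in 5 libraries, with 1097 and 388 bp under peaks in the Ctrl libraries, 898 and 383 bp in the SR2 libraries and 1037 and 0 bp in the THC libraries. Mir196b lay inside a region of 1241 bp that was marked in 3 libraries, with 1241 and 577 bp in Ctrl, 0 and 0 bp in SR2 and 269 and 0 bp in THC. Here and below the values are given in the order replicate 1, replicate 2.

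Promoter windows under regions marked in at least 2 libraries were mostly rich in CpG. The window runs from 250 bases before to 50 bases after a gene's start, and a total of 28 windows of 26 genes overlapped such a region. Their median number of CG dinucleotides was 24.5, against 13 over all 21045 windows in the table, and 82.1% held at least 10, against 57.3% of all windows. CG reads the same on both strands, so 1 search covers both. The 50 windows under regions of a single library had a median of 14, and the 192 windows under shared regions that overlap H3K4me3 had 24. The window table holds 103 of the 141 genes near shared regions (73%), so a comparison over that gene set is void and only the windows themselves are described. The next 4 windows (RefSeq, GRCm38.p6, 5′ to 3′) are examples of CpG-rich and CpG-poor starts, with CG in capitals. Pax2, a transcription factor of kidney, eye and ear, Hoxd11, a limb and axis factor, and Gata2, a factor of blood progenitors, have 23, 25 and 32 CG, and Hoxd8 has 6.
Pax2 (chr19:44755502-44755801, plus strand): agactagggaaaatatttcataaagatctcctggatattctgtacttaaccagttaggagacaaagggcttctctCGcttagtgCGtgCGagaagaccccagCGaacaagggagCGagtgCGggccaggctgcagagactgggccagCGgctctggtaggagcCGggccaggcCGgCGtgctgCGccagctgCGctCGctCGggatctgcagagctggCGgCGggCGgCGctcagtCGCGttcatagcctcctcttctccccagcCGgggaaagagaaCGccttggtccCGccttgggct
Hoxd11 (chr2:74682073-74682372, plus strand): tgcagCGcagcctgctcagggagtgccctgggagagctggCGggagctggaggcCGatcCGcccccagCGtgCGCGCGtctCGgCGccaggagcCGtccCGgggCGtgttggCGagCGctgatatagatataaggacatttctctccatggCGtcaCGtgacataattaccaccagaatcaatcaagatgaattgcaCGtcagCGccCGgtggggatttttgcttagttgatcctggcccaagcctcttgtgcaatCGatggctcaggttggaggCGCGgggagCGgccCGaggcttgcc
Gata2 (chr6:88193641-88193940, plus strand): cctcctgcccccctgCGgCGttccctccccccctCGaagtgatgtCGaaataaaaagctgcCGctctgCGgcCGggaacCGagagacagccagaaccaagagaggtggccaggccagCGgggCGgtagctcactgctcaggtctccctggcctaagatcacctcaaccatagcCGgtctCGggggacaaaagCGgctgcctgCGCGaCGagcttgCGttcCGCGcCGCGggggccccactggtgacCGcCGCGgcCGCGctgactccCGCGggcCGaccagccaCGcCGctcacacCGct
Hoxd8 (chr2:74704365-74704664, plus strand): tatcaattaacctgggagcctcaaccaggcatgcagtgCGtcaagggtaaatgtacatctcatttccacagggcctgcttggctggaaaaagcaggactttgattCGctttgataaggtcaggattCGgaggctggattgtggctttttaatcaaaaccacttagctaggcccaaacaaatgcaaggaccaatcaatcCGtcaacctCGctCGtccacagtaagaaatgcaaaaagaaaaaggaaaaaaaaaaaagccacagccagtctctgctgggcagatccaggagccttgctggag
The region over the Pax2 window was marked in 5 libraries, those over the Hoxd11 and Gata2 windows in 4 and 3, and the one over the CpG-poor Hoxd8 window in Ctrl replicate 1 and THC replicate 1.

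The libraries differed widely in the length of their lists, and the second THC library stood apart. On chromosomes 1 to 19 and X the H3K27me3 lists of the Ctrl libraries held 2708 and 386 peaks, those of SR2 839 and 157, and those of THC 983 and 70. In each treatment the batch 1 list was the longer. Peak lists hold no read totals, so the depth of these libraries is unknown and no floor or counting interval can be given. THC replicate 2 had 9 peaks without H3K4me3, while 61 of its regions overlapped H3K4me3, 25 of them regions that all 6 H3K27me3 libraries marked. By H3K4me3 within 1 kb of a gene end, 6 of 7 luminal markers had a peak in every library except THC replicate 1, where 3 did. The 4 basal markers had 2 with a peak, the fibroblast, endothelial and blood markers at most 1 of 3 each and the adipocyte markers 1 of 2 in the library with the most. THC replicate 1 had 0 for these non-luminal lists, and Elf5, a factor of luminal progenitors, had no peak in any library. The H3K4me3 list of THC replicate 1 was also the shortest, with 11924 peaks against 13227 to 18383 in the other libraries. How far the cell make-up or the differing depth bears on the H3K27me3 lists was not tested.

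Most of the regions without H3K4me3 were seen once. A single library marked 2622 of the 2828 (92.7%), and 1676 of these (63.9%) came from Ctrl replicate 1. THC replicate 1 gave 443 of the single-library regions, SR2 replicate 1 gave 307, Ctrl replicate 2 gave 139, SR2 replicate 2 gave 53 and THC replicate 2 gave 4. The remaining 206 regions (7.28%), called shared regions below, were marked in 2 libraries (119), 3 (54), 4 (21), 5 (11) or all 6 (1). Of the regions that overlap H3K4me3, 345 (25.5%) were shared and 25 were marked in all 6. Without Ctrl replicate 1 there were 1167 regions, of which 120 were shared, and without THC replicate 2 there were 2824 and 203.

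**Figure D1:**
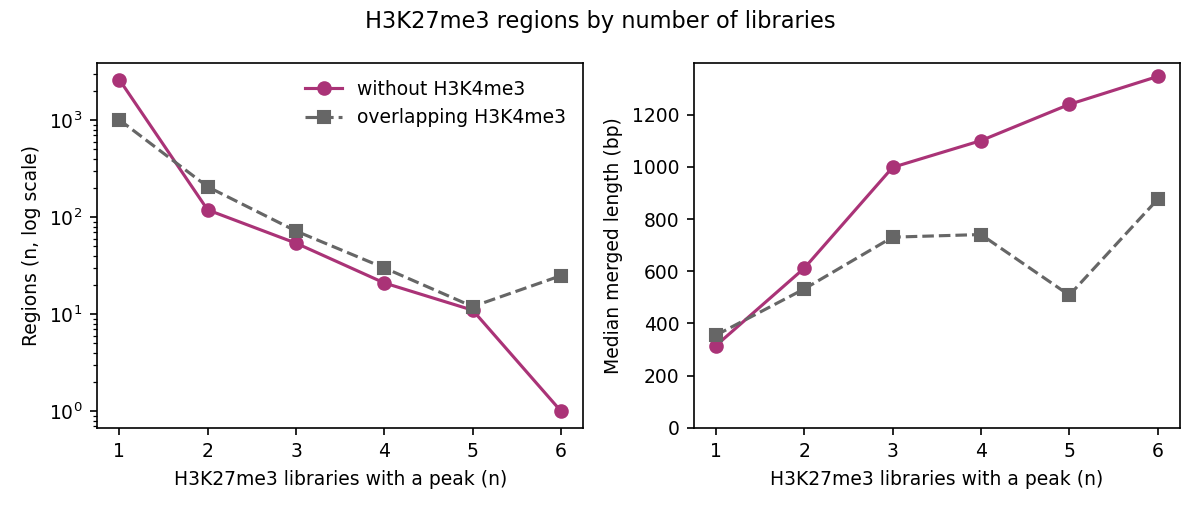
Number of merged H3K27me3 regions (left, log scale) and their median length in bp (right) by the number of the 6 H3K27me3 libraries with a peak, for regions without H3K4me3 (circles) and regions overlapping it (squares). Among regions without H3K4me3, 2622 were marked in 1 library and 1 in all 6, and the median length went from 315 bp to 1347 bp.

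Shared regions were longer, and their peaks were longer, with lower fold enrichment and a higher −log10 q than single-library peaks in 5 of the 6 libraries. The median length was 322 bp over all regions without H3K4me3 (quartiles 274 and 409, range 195 to 3140), and by number of libraries it was 315, 612, 998.5, 1101, 1240 and 1347 bp. A merged region grows as peaks of more libraries are joined, so this order is partly built in. Within single libraries, where no merging acts, peaks in shared regions had a median length of 641.5 and 457.5 bp in Ctrl, 445.5 and 261 bp in SR2 and 391.5 and 299 bp in THC. Peaks seen in 1 library had 323 and 327 bp, 297 and 222 bp, and 290 and 305 bp. The shared peaks were thus the longer ones in every library except THC replicate 2. The authors' fold enrichment of a peak over the caller's background was turned into a percentile within its list, where 0 is the lowest enrichment. Shared peaks had medians of 8.05 and 20.3 in Ctrl, 10.7 and 16.6 for SR2, and 13.4 and 62.9 for THC, and single-library peaks 53.1 and 56.2, 50.2 and 50.6, and 52.6 and 25. In every library except THC replicate 2 the shared peaks were thus the less enriched ones. The authors' −log10 q had a higher median in shared than in single-library peaks in all 6 (1.91 and 1.58, 1.65 and 2, 1.52 and 3.21 against 1.53 and 1.32, 1.37 and 1.25, 1.37 and 1.68).

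Replicates of a treatment shared few regions. The Ctrl libraries had 86 regions in common, which is 4.67% of those in replicate 1 and 35.2% of those in replicate 2. The SR2 libraries had 18 in common (4.38% and 21.7%), and the THC libraries had 3 (0.517% and 33.3%). By number, the batch 1 libraries of different treatments had more regions in common than the replicates of SR2 or THC did. As a share of the shorter list they had less, where the THC share rests on the 9 regions of replicate 2. Ctrl and THC had 103 (5.6% and 17.8%), Ctrl and SR2 75 (4.08% and 18.2%), and SR2 and THC 66 (16.1% and 11.4%). The length of the 2 lists bears on each of these counts. Over all H3K27me3 regions, with or without H3K4me3, the replicates had 186 (Ctrl), 67 (SR2) and 42 (THC) in common. Replicate 2 held 384, 156 and 70 regions of either kind, in that order.

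**Figure D2:**
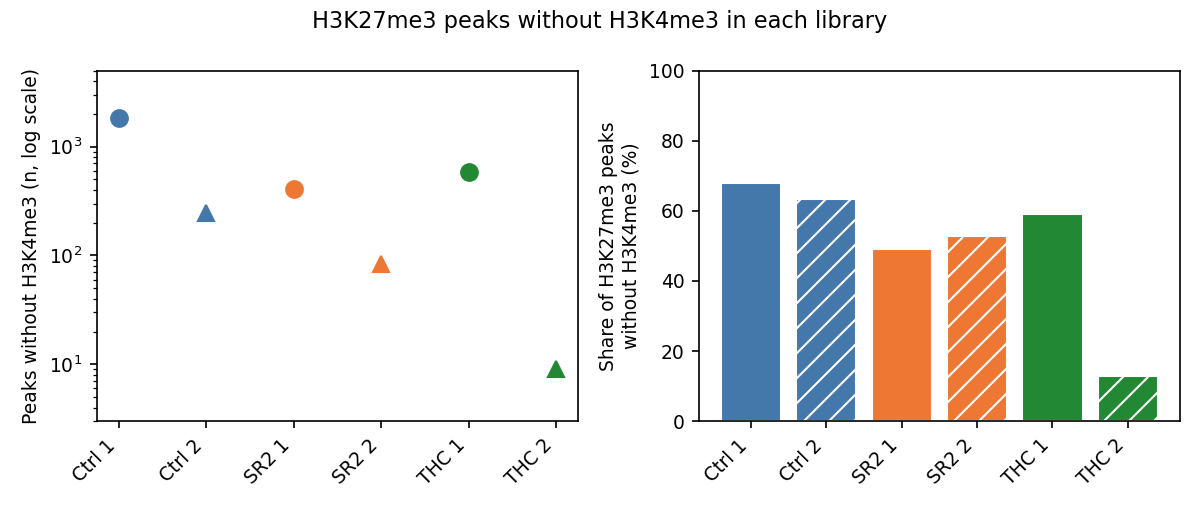
Number of H3K27me3 peaks without H3K4me3 (left, log scale) and their share of all H3K27me3 peaks in percent (right) in each library, coloured by treatment, with circles and plain bars for replicate 1 and triangles and hatched bars for replicate 2. Each point or bar is 1 library, from 1840 peaks in Ctrl replicate 1 to 9 in THC replicate 2, where the share was 12.9%.

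Hox genes, the homeobox factors that set position along the body axis, were the group most often found beside these regions. Of 39 Hox genes, 36 (92.3%) lay within 5 kb of a region without H3K4me3, and 27 (69.2%) within 5 kb of a shared one. Over all 21631 protein-coding genes the shares were 5.47% (1184 genes) and 0.652% (141 genes). The 3 Hox genes with no such region were Hoxb1, Hoxd1 and Hoxd4. By library, 34 and 23 Hox genes (87.2% and 59%) were near a region in Ctrl, 24 and 9 (61.5% and 23.1%) for SR2, and 25 and 0 (64.1% and 0%) for THC. The counts over all protein-coding genes also varied with the library. They were 843 and 153 (3.9% and 0.707%) in Ctrl, 211 and 53 (0.975% and 0.245%) for SR2, and 282 and 2 (1.3% and 0.00925%) for THC. Hox genes are packed closely, so 1 region can count for several of them. No Hox count of shared regions fell under 26 when any 1 library was left out. With H3K27me3 peaks limited to a −log10 q of at least 2 it was 10. With all peaks, 10 Hox genes (25.6%) lay near regions that overlap H3K4me3, and 5 (12.8%) near shared ones of that kind. Over all protein-coding genes these shares were 6.91% and 1.45%. Nearness to Hox genes was thus not confined to regions without H3K4me3.

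The Hoxd cluster and its neighbour Evx2, an even-skipped homeobox gene, held a run of regions that were all marked in at least 2 libraries. At Evx2 (chr2:74656301-74659179, mm10) peaks covered 2879 and 1156 bp in Ctrl, 442 and 260 bp in SR2 and 363 and 0 bp in THC. Every library except THC replicate 2 marked it, and both Ctrl values were above all others. The region at Hoxd10, Hoxd11 and Hoxd12, the second longest of all at 2933 bp, had 2933 and 814 bp in Ctrl, 542 and 0 bp in SR2 and 539 and 0 bp in THC. Near Hoxd13, a factor of digits and the hind end of the axis, peaks covered 893 and 990 bp, 572 and 0 bp, and 641 and 0 bp. Both regions had a peak in 4 libraries and none in replicate 2 of SR2 and of THC. When regions less than 10 kb apart were linked, 6 regions ran from Hoxd13 to Hoxd3 over 37387 bp, all 6 of them shared, and no H3K4me3 region lay within that span.

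In the Hoxa cluster, peaks at Hoxa13, the last gene of the cluster and like Hoxd13 a factor of digits, covered 1011 and 814 bp in Ctrl, 876 and 0 bp in SR2 and 948 and 0 bp in THC. At Hoxa3 and Hoxa4 the values were 1744 and 473 bp, 0 and 245 bp, and 292 and 0 bp. Linked regions made a run of 8 from Hoxa9 to Hoxa13 over 32742 bp, with 0 H3K4me3 regions inside.

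In the Hoxc cluster the region at Hoxc6 and Hoxc5 (2282 bp) had 1489 and 1125 bp in Ctrl, 1014 and 192 bp in SR2 and 243 and 0 bp in THC. Hoxc10, a factor of the lumbar axis and hind limb, had 1464 and 345 bp, 356 and 0 bp, and 740 and 0 bp. In the Hoxb cluster, Hoxb9 had 1266 and 461 bp, 359 and 0 bp, and 412 and 0 bp. The runs of linked regions were 8 from Hoxc13 to Hoxc10 over 35510 bp and 8 from Hoxb9 to Hoxb5 over 37190 bp, without an H3K4me3 region inside either span. Hoxb7 and Hoxb8 shared a region with 1450 and 0 bp, 1078 and 0 bp, and 1225 and 0 bp, that is, a peak in every batch 1 library and in no batch 2 library. Hoxb2, Hoxb3, Hoxb4, Hoxb5, Hoxc4, Hoxc9, Hoxc13, Hoxa7 and Hoxa11 had regions of 1 library only.

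**Figure D3:**
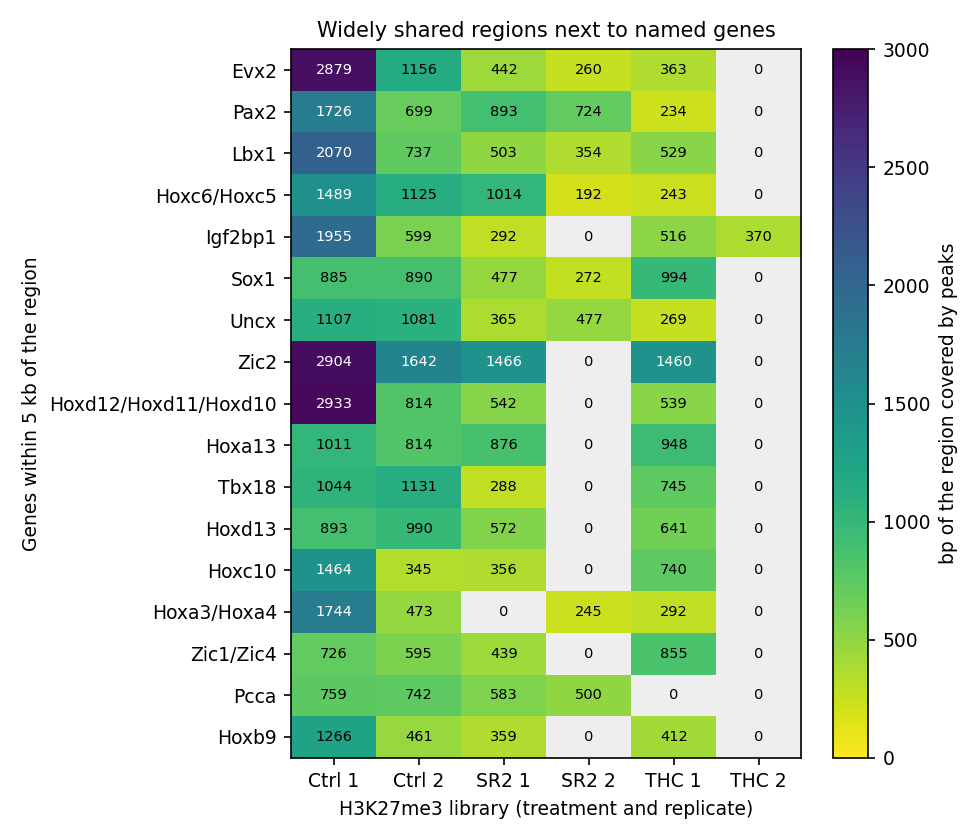
Base pairs covered by H3K27me3 peaks in each of the 6 libraries (columns) at widely shared regions next to protein-coding genes (rows), with darker colours for more bp and grey for 0. Both Ctrl libraries had a peak in every row, the highest at Hoxd10 to Hoxd12 with 2933 bp, and THC replicate 2 had one only at Igf2bp1.

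Other developmental transcription factors came next. Of 128 such genes, 79 (61.7%) lay near a region without H3K4me3 and 37 (28.9%) near a shared one. By library 68 and 27 of them (53.1% and 21.1%) were near a region in Ctrl, 26 and 4 (20.3% and 3.12%) for SR2, and 37 and 1 (28.9% and 0.781%) for THC. Over all protein-coding genes the shares were 3.9% and 0.707% in Ctrl, 0.975% and 0.245% for SR2, and 1.3% and 0.00925% for THC. Without Ctrl replicate 1 the count near shared regions was 26, and with a −log10 q of at least 2 it was 11. With all peaks, regions that overlap H3K4me3 lay near 32 of the 128 genes (25%), and shared ones of that kind near 21 (16.4%). The gene lists were drawn up with earlier results of these data known, so these shares describe the lists and test nothing.

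Among the PAX, SOX and LBX genes, Pax2 had 1726 and 699 bp in Ctrl, 893 and 724 bp in SR2 and 234 and 0 bp in THC. Sox1, a factor of neural progenitors, had 885 and 890 bp, 477 and 272 bp, and 994 and 0 bp. Lbx1, a factor of migrating muscle precursors and spinal cord neurons that was not on the lists, had 2070 and 737 bp, 503 and 354 bp, and 529 and 0 bp. All 3 regions were marked in every library except THC replicate 2. Of 3 regions near Pax1, a factor of the vertebral column, the most widely marked had peaks in the batch 1 libraries only. It had 375, 984 and 258 bp in Ctrl, SR2 and THC. Of 2 regions near Sox17, a factor of endoderm, 1 was marked in SR2 replicate 1 (294 bp) and THC replicate 1 (924 bp). The other was marked in Ctrl replicate 1.

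The ZIC genes, zinc finger factors of forebrain and axis development, had regions on chromosomes 14 and 9. The run at Zic2 and Zic5 had 8 regions over 39903 bp and reached into Pcca, which encodes a subunit of the mitochondrial propionyl-CoA carboxylase. The region at Zic5 was the longest of all (3140 bp), with 3140 and 722 bp in Ctrl, 0 and 0 bp in SR2 and 1347 and 0 bp in THC. Zic2 had 2904 and 1642 bp, 1466 and 0 bp, and 1460 and 0 bp, and the most widely marked of the regions in Pcca 759 and 742 bp, 583 and 500 bp, and 0 and 0 bp. The region at Zic1 and Zic4 on chromosome 9 had 726 and 595 bp, 439 and 0 bp, and 855 and 0 bp.

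Further homeobox, T-box and GATA genes followed. Tbx18, a factor of heart and ureter, had 1044 and 1131 bp in Ctrl, 288 and 0 bp in SR2 and 745 and 0 bp in THC. Uncx, a homeobox gene of somites, had 1107 and 1081 bp, 365 and 477 bp, and 269 and 0 bp. Tbx18 had no peak in replicate 2 of SR2 or of THC, and Uncx had none in THC replicate 2 alone. Six2, a factor of kidney progenitors, had 542 and 435 bp, 299 and 0 bp, and 610 and 0 bp. At Gata4, a factor of heart and gut, the shared regions were marked in batch 1 only. The longer of them had 1519, 1453 and 1075 bp in Ctrl, SR2 and THC. Runs of 4 regions lay at Nkx2-1, Barhl2, Sox1 and Zic4, among others, and a run of 6 at Uncx. In all, 2612 runs were formed, 138 of at least 2 regions and 41 of at least 3.

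Igf2bp1, an RNA-binding protein gene of fetal tissues, was the only protein-coding gene with a region marked in 5 libraries that included THC replicate 2. Its values were 1955 and 599 bp in Ctrl, 292 and 0 bp in SR2 and 516 and 370 bp in THC. Of the 9 regions in THC replicate 2, 1 other lay near a protein-coding gene, Pitx1, a hind limb factor. That region had 0 and 465 bp in Ctrl, 0 and 0 bp in SR2 and 0 and 280 bp in THC. The run of 4 regions that holds it had 899 and 465 bp, 0 and 0 bp, and 245 and 280 bp.

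Mammary lineage genes were near these regions about as seldom as genes in general, of which 5.47% were near any and 0.652% near a shared region. Of 26 luminal genes 1 lay near a region (3.85%), namely Esr1, the oestrogen receptor, with 409 bp in Ctrl replicate 1. None of 20 basal and myoepithelial genes did, nor any of 14 cannabinoid receptor and endocannabinoid enzyme genes. Of 22 genes of the epithelial mesenchymal transition 2 did, Zeb2, a repressor of E-cadherin (397 bp in Ctrl replicate 1), and Tnc, a matrix glycoprotein (259 bp in THC replicate 1). Of 42 Wnt and Notch genes 6 did (14.3%), each in 1 library, such as the ligand genes Wnt3a (933 bp) and Dll1 (643 bp) in Ctrl replicate 1. Of 20 stromal, endothelial and adipocyte markers 3 did (15%), among them Col1a2, a fibrillar collagen chain, with 805 bp in Ctrl replicate 1, and of 21 blood markers 1 did, Adgre1.

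Of 33 Polycomb subunits and H3K27 demethylases, 3 lay near a region (9.09%). They were the PRC1 reader genes Cbx8, with 1082 bp in Ctrl replicate 1, and Cbx2, with 346 bp in Ctrl replicate 2, and the demethylase gene Kdm6b, with 319 bp in Ctrl replicate 1. Of 18 tumour suppressor and senescence genes known as Polycomb targets, 6 did (33.3%). Runx3, a factor often silenced in carcinomas, was the 1 of them near a shared region, with 576 and 308 bp in Ctrl, 0 and 227 bp in SR2 and 233 and 0 bp in THC. Cdkn2a, which encodes the cell cycle inhibitor p16, had 493 bp in Ctrl replicate 1 only. Of 32 imprinted genes 2 did, Cdkn1c and Snrpn.

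Large neuronal genes were near single-library regions. Of 64 neuronal channel, receptor and adhesion genes, 22 (34.4%) lay near a region and 0 near a shared one. Their median gene length was 231.3 kb, against 17.3 kb over all protein-coding genes, so a region placed without regard to genes falls in them more often. Ctrl replicate 1 had a region at 16 of them (25%), SR2 replicate 1 at 6 (9.38%) and THC replicate 1 at 2 (3.12%), and the batch 2 libraries at 0. Over all protein-coding genes the shares in Ctrl, SR2 and THC were 3.9%, 0.975% and 1.3% in batch 1 and 0.707%, 0.245% and 0.00925% in batch 2. The cadherin genes (8 of 28) and collagen genes (10 of 48) are likewise long, with medians of 106.5 and 110.4 kb. Olfactory receptor genes, the largest family, were near a region in 11 of 1110 cases (0.991%), and zinc finger genes with the Zfp symbol in 16 of 400 (4%).

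**Figure D4:**
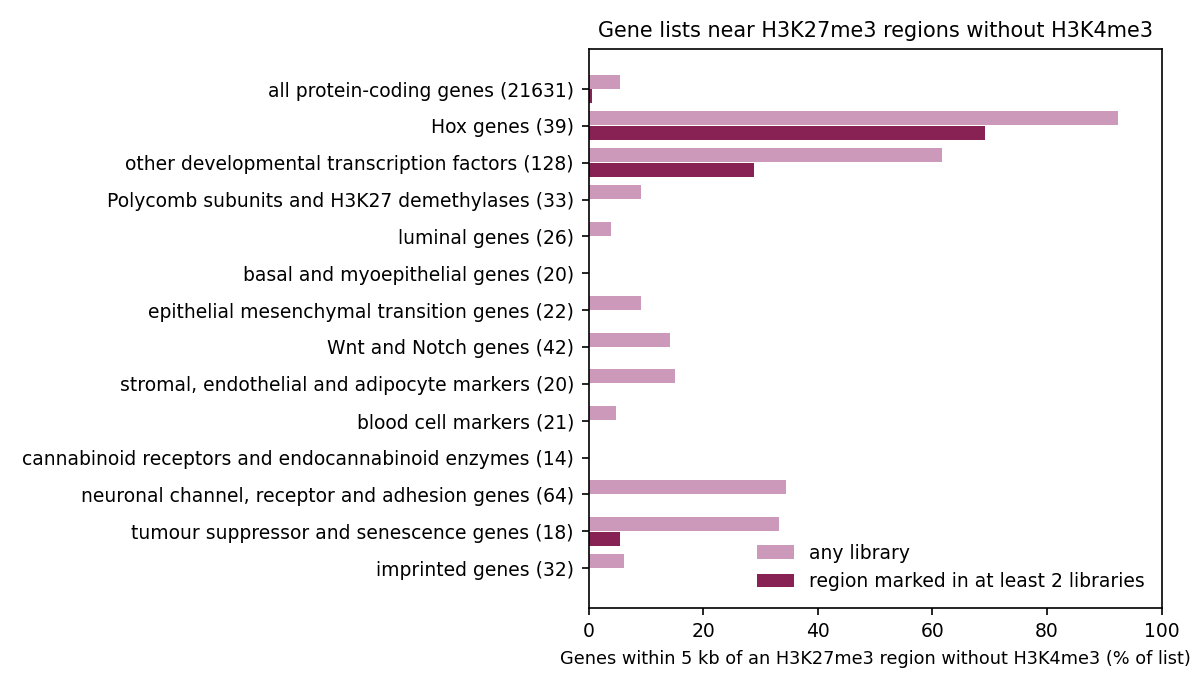
Percent of each gene list (number of genes in brackets) that lay within 5 kb of an H3K27me3 region without H3K4me3 in any library (light bars) or of a region marked in at least 2 libraries (dark bars). Hox genes stood at 92.3% and 69.2%, other developmental transcription factors at 61.7% and 28.9%, and all protein-coding genes at 5.47% and 0.652%.

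The position of the regions along the genome split between shared and single-library ones. Of all regions without H3K4me3, 1368 (48.4%) lay within 5 kb of a protein-coding gene, 46.3% of the single-library and 75.2% of the shared ones. Of all regions that overlap H3K4me3, 85.5% did, 89.9% of those in 1 library and 72.5% of those in at least 2. The median distance to the nearest end of a protein-coding gene was 35421 bp for single-library regions and 2865.5 bp for shared regions. For all regions that overlap H3K4me3 it was 148 bp, and for those marked in at least 2 libraries 936 bp. Another region without H3K4me3 lay within 10 kb of 55.8% of shared and 9.12% of single-library regions. Long non-coding RNA genes lay within 5 kb of 42.2% of shared regions and 20.2% of all, and 12.1% of shared against 36.6% of all had no annotated gene of any kind there. An H3K4me3 region lay within 5 kb of 283 regions (10%), 32 of the shared ones (15.5%).

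**Figure D5:**
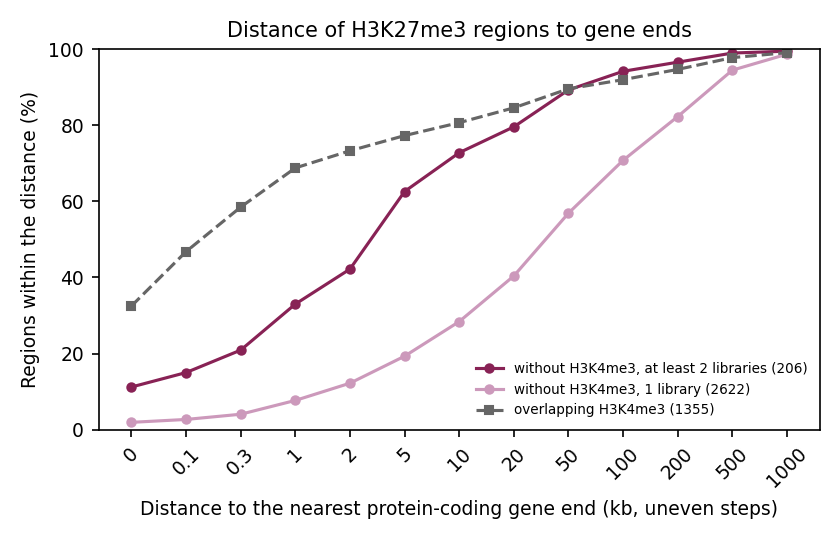
Cumulative percent of H3K27me3 regions within a given distance (kb, uneven steps) of the nearest end of a protein-coding gene, for shared regions without H3K4me3, single-library regions without H3K4me3 and regions overlapping H3K4me3. Within 1 kb lay 33%, 7.67% and 68.8% of them. Of the overlapping regions marked in at least 2 libraries, which are not drawn separately, 50.4% lay within 1 kb.

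Within every library, peaks without H3K4me3 were shorter, less often near genes and more often on X than the other peaks of that library. Median lengths were 332 and 354 bp against 394.5 and 418 bp in Ctrl, 312 and 235 bp against 378 and 351.5 bp in SR2, and 306 and 299 bp against 381.5 and 365 bp in THC. The mean difference on the log2 scale was −0.325 (SD 0.128, n = 6 libraries). The share on X was 6.03% and 11.4% against 2.76% and 6.38% in Ctrl, 6.81% and 9.64% against 1.64% and 4.05% in SR2, and 9.64% and 11.1% against 2.49% and 3.28% in THC. The mean difference was 5.68 percentage points (SD 1.63, n = 6). The percentile of fold enrichment differed by −14 on average (SD 9.42, n = 6), and the share near a protein-coding gene by −21.4 points (SD 12.4, n = 6). Each of the 4 measures had the same sign in all 6 libraries. Among merged regions marked in at least 2 libraries, the differences in length, nearness to genes and X were not seen. Those without H3K4me3 had a median length of 785 bp, against 570 bp for those that overlap it. Of them 75.2% lay near a protein-coding gene against 72.5%, and 2.91% lay on X against 2.9%. The 2 kinds of peak are those that the H3K4me3 rule itself separates. A long peak has more room to meet H3K4me3, H3K4me3 sits at gene starts, and few H3K4me3 regions lie on X, so these values are a description, with no test.

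Regions on X were mostly those of a single library. X held 226 of the 2828 regions (7.99%), 8.39% of the single-library and 2.91% of the shared ones (6 regions). It held 2.51% of regions that overlap H3K4me3, 2.9% of those in at least 2 libraries, and 3% of the H3K4me3 regions. The 6 shared X regions were each marked in 2 libraries, among them one of 2683 bp at the pseudogene Zxda (1488 bp in SR2 replicate 1, 2432 bp in THC replicate 1). Without Ctrl replicate 1 the share on X was 10%.

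Repeated RNA genes gave the most widely marked region. The single region marked in all 6 libraries (chr8:123600524-123601870, mm10) lay in the array of 5S ribosomal RNA genes, with 1347 and 777 bp in Ctrl, 877 and 215 bp in SR2 and 308 and 299 bp in THC. Another region of the same array was marked in 5 libraries and 2 more in 3, and a region at the glutamate transfer RNA gene n-TEttc2 on chromosome 3 was marked in 5. These genes have near-identical copies between which the reads of a fragment may be split or misplaced, so their values are uncertain.

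Between treatments the number of peaks without H3K4me3 differed by less than the spread between the Ctrl replicates. Ctrl had 1840 and 245 such peaks, SR2 411 and 83, and THC 581 and 9. The Ctrl replicates are further apart than any pair of treatment means, which were 1042.5 ± 1127.8 (SD, n = 2), 247 ± 231.9 and 295 ± 404.5. The ratio of means was 0.237 for SR2 to Ctrl and 0.283 for THC to Ctrl (exact two-sided permutation test, p = 0.667 for each, where the smallest p that 2 against 2 allows is 0.333). Within batches 1 and 2 the ratio was 0.223 and 0.339 for SR2 to Ctrl, 0.316 and 0.0367 for THC to Ctrl, and 1.41 and 0.108 for THC to SR2. In each batch the SR2 and the THC library were below the Ctrl library. Without Ctrl replicate 1 the ratios were 1 for SR2 and 1.19 for THC, and without THC replicate 2 THC to Ctrl was 0.557 and THC to SR2 2.35, against 0.0404 without THC replicate 1.

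The share of a library's peaks that lacked H3K4me3 was 67.9% and 63.5% in Ctrl, 49% and 52.9% for SR2, and 59.1% and 12.9% for THC. The Ctrl values lay above all others. The means were 65.7 ± 3.16% (SD, n = 2), 50.9 ± 2.74% and 36 ± 32.7%, and both Ctrl comparisons gave the smallest p the design allows (exact permutation test, p = 0.333). Lists of equal length gave another order in batch 2. With the 839 peaks of highest −log10 q of each batch 1 library the share was 63.6% in Ctrl, 49% in SR2 and 57.4% in THC, and 60, 50 and 55 Hox and other developmental genes lay near them. With the 70 highest of each batch 2 library it was 27.1%, 37.1% and 12.9%, with 4, 7 and 1 such genes. The SR2 share was therefore below that of Ctrl at full length in both batches, and above it in batch 2 at equal length.

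Of the 86 regions that both Ctrl libraries marked, 41 (47.7%) had no peak in either SR2 library. Over all merged H3K27me3 regions, with or without H3K4me3, the share was 40.9%, so the count is near the background. SR2 replicate 2 had 83 regions without H3K4me3 in all, against 411 in replicate 1, so the absence rests largely on SR2 replicate 1. Sp8, a zinc finger factor of limb outgrowth, had 1937 and 2068 bp in Ctrl, 0 and 0 bp in SR2 and 1367 and 0 bp in THC. Hoxb13, a factor of prostate and tail, had 1681 and 1613 bp, 0 and 0 bp, and 1185 and 0 bp. These are long peaks in both Ctrl libraries and in 1 THC library. Prdm12, a regulator of pain-sensing neurons, had 1290 and 1167 bp in Ctrl and 1474 and 0 bp in THC, with 0 bp in both SR2 libraries. At Asic4, of the acid-sensing ion channel family, the values were 991 and 1052 bp in Ctrl, 0 and 0 bp in SR2 and 335 and 0 bp in THC. In the opposite direction, 1 of the 18 regions of both SR2 libraries was in neither Ctrl library (5.56%, background 10.4%). It lay at Cobl, an actin nucleator gene, with 0 and 0 bp in Ctrl, 248 and 238 bp in SR2 and 243 and 0 bp in THC.

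Regions of both Ctrl libraries that neither THC library had numbered 40 of 86 (46.5%, background 39.2%). Since THC replicate 2 had 9 regions in all, the absence rests almost wholly on THC replicate 1. Gata2 had 1935 and 351 bp in Ctrl, 684 and 0 bp in SR2 and 0 and 0 bp in THC. Nkx6-1, a factor of pancreatic beta cells and motor neurons, had 1427 and 1220 bp, 1313 and 0 bp, and 0 and 0 bp. Barx1, a stomach factor, had 1173 and 504 bp, 0 and 344 bp, and 0 and 0 bp, and Hmx3, a factor of the inner ear, 278 and 1318 bp with 0 bp in all SR2 and THC libraries. A second region at Uncx (1959 and 1342 bp), one at Nkx2-1, a factor of lung and thyroid (755 and 1137 bp), one at Nkx2-9 (1158 and 873 bp) and one at Cacna2d1, a calcium channel subunit gene (1200 and 869 bp), were in both Ctrl libraries and in none of the 4 treated ones. A neighbouring region at Nkx2-1 had 399 and 0 bp in Ctrl, 0 and 0 bp in SR2 and 589 and 0 bp in THC. Only 1 region was in both THC libraries and in neither Ctrl library, of 3 (33.3%, background 9.52%), and no protein-coding gene lay within 5 kb of it. Between the treatments, 5 of 18 regions of both SR2 libraries were in neither THC library (27.8%, background 14.9%), and 1 of 3 of both THC libraries in neither SR2 library (33.3%, background 7.14%).

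With 1 library per side, in each batch alone, most regions were present on 1 side. In batch 1, 95.9% of Ctrl regions were absent from SR2 and 81.8% of SR2 regions were absent from Ctrl, and in batch 2 the shares were 91% and 73.5%. Over all H3K27me3 regions, with or without H3K4me3, the same shares were 91% and 70.9% in batch 1 and 84.4% and 61.5% in batch 2. Ctrl regions absent from THC made up 94.4% and 98.8% in batches 1 and 2 (90.7% and 88% over all regions), and THC regions absent from Ctrl 82.2% and 66.7% (74.2% and 34.3%), where the batch 2 share is 6 of 9 regions.

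No region passed the test of covered length between treatments. The bp under peaks, as log2 of bp plus 200, were fitted with limma for the 551 H3K27me3 regions marked in at least 2 libraries, of which 206 lacked H3K4me3. After Benjamini-Hochberg adjustment over the 551 regions, 0 were called for SR2 against Ctrl, THC against Ctrl and THC against SR2, and the background share called was 0% in each direction. The smallest adjusted p (limma) among regions without H3K4me3 was 0.152, 0.267 and 0.637. At an unadjusted p under 0.05, 1 of the 206 was higher and 17 were lower in SR2 than in Ctrl. Of all 551 regions 6 were higher and 25 lower (1.09% and 4.54%). For THC against Ctrl 20 of the 206 were higher and 2 lower, and 64 and 3 of all 551 (11.6% and 0.544%). For THC against SR2 9 of the 206 were higher and 1 lower, and 15 and 1 of all 551 (2.72% and 0.181%). These comparisons share the Ctrl or treated libraries.

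The direction of the THC values turned with the scaling, against Ctrl and against SR2. Libraries were centred on their median over 100 regions marked in at least 4 libraries, and the centre of THC replicate 2 was 7.64, the value of a region without a peak. Centred, the median log2 difference of THC from Ctrl was 0.552 over all regions and 0.275 over those without H3K4me3. Uncentred it was −0.506 and −0.784, and 1 region without H3K4me3 was then higher and 39 were lower at an unadjusted p under 0.05. For SR2 against Ctrl the medians were −0.115 and −0.367 centred and −0.578 and −0.831 uncentred, with 0 regions higher and 36 lower uncentred. For THC against SR2 the medians were 0.596 and 0.596 centred and 0 and 0 uncentred, with 1 higher and 4 lower uncentred. Centring moves a region away from 0 even where none of the libraries compared has a peak. The lowest value among the 206 regions was at Sp8, where the log2 difference of SR2 from Ctrl was −3 (SE 0.833, limma adjusted p = 0.152), and with the replicate as a block, where replicate numbers are batches in the labels, the adjusted p (limma) was 0.0292 (SE 0.739). Both Ctrl libraries were above both SR2 libraries there. At Hoxb13 the log2 difference was −2.74 (SE 0.847, limma adjusted p = 0.225) and at Zic5 −2.67 (SE 0.847, limma adjusted p = 0.226). These differences depend on the added 200 bp, since SR2 had no peak. The highest value for THC against Ctrl was 2.92 (SE 0.916, limma adjusted p = 0.267), at the Zxda region on X. It had 0 and 0 bp in Ctrl and 2432 and 0 bp in THC. The region in both THC libraries and no other (chr5:15670812-15671198) had 2.42 (SE 0.78, limma adjusted p = 0.267). These 2 values depend on the centring as well as on the added bp.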

How the data were processed

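CUT&Tag for the 2 marks used 500000 cells per sample, 60 min of tagmentation and paired reads of 150 bp, as the labels' protocols state. The labels name different enzymes for dissociation in 2 places. Per the submitters' processing notes, the tools were MACS3, bedtools, deepTools, Picard, SAMtools 1.8, Bowtie2 2.5.4 and cutadapt 5.2 (order not stated), with the build mm10. The authors called peaks per library, as the peak names show. The deposited lists give for each peak a score, a fold enrichment, which is a ratio within 1 library, and −log10 p and −log10 q values. These deposited values were used only within a list, to rank or filter peaks and, for −log10 q, to compare medians. The authors' score was not used. Peaks are broad for H3K27me3 and narrow for H3K4me3, and no file holds read totals.

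Peaks were merged at 1 bp overlap on chromosomes 1 to 19 and X. Genes came from the RefSeq table of GRCm38.p6, and a gene counted as near within 5 kb of its ends. No genome was given, so base composition of the regions themselves was not analysed here, and exons, introns and untranslated regions were not annotated. Python 3.11.15 with pandas 2.3.3, numpy 2.4.6 and scipy 1.17.1 was used, and R 4.3.3 with limma 3.58.1. The limma fit, with a trend in the variance, took the 6 H3K27me3 libraries together as log2 of covered bp plus 200, with a Benjamini-Hochberg threshold of 0.05. Libraries were centred, so a difference on this scale depends on the centres and on the added bp wherever a library has no peak. The limma code was run on simulated data with less spread, a peak in most libraries and no centring. That run therefore does not bear on how the reported fit performs. Treatment values were tested by exact permutation. The sign-flip test designed for peaks with and without H3K4me3 is not reported, since the rule that separates them bears on the measures.

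The regions and the 13 gene lists and 20 gene families were chosen with earlier results of these data known. Named genes are the 25 nearest to the regions marked in most libraries, by mean covered bp, the list genes near shared regions and at most 3 others per list, the 5 longest regions and 5 largest runs, and up to 10 genes for each comparison of presence, leaving out clone names. Some genes that this rule names are not reported here. Zxda, the microRNA genes and the ribosomal and transfer RNA genes were named after their values were seen. The replicate number is the batch in the labels, so the pairing of samples comes from the labels, and no check of shared deviations was made on these lists. Alternatives covered peak thresholds, merging, gene distance, the H3K4me3 rule, equal list lengths, pseudocount, centring, filters, the block and each library left out.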

Additional observations from a re-analysis of the deposited data

Results flagged for a closer look

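Peaks on the unplaced contig JH584304, which the analysis of chromosomes 1 to 19 and X did not use, were more numerous in some treated libraries than in either Ctrl library of the same mark. In the H3K27me3 lists SR2 had 14 and 13 such peaks, against 10 and 11 in Ctrl, and THC had 18 and 10. In the H3K4me3 lists SR2 had 14 and 15 and THC had 13 and 21, against 8 and 11 in Ctrl. Both treated libraries lay above both Ctrl libraries in 3 of these 4 comparisons, and the difference was not tested.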

How the results depend on the processing

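With H3K27me3 peaks of −log10 q of at least 2, there were 555 regions without H3K4me3 (58.6% of all), 51 of them shared, 51.2% near a protein-coding gene and 5.77% on X, with 10 Hox and 11 other developmental genes near shared regions. The within-library differences were then −0.405 in log2 length, −10.5 points near genes, 4.52 points on X and −11.3 in fold enrichment percentile. With H3K4me3 peaks of −log10 q of at least 5 the share was 73% and the X difference 6 points. When no H3K4me3 was allowed within 1 kb or 5 kb, the share was 65.7% or 60.9%, the percentile difference −12.7 or −5.19, and 45.7% were near a gene at 5 kb. With only H3K4me3 regions of at least 2 libraries the share was 72.3%. Merging within 5 kb gave a percentile difference of −7.71. Gene distances of 1, 10 and 50 kb gave 42.3%, 53.9% and 70.1%.

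With the 70 peaks of highest −log10 q per library, the ratio SR2 to Ctrl was 1.08, the share difference SR2 minus Ctrl 2.14 points and the ratio THC to SR2 0.615, each in the opposite direction. Presence was also counted with at least 500 bp covered as the mark. Regions in both Ctrl and neither SR2 library then numbered 27, and in both Ctrl and neither THC library 23. Those in both SR2 and neither THC library numbered 3, and each reverse 0. Without batch 2, with 1 library per side, the counts were 1765 for Ctrl without SR2 and 336 for the reverse. They were 1737 and 477 for Ctrl and THC, and 345 and 514 for SR2 and THC. These were 95.9%, 81.8%, 94.4%, 82.2%, 83.9% and 88.6% of the regions without H3K4me3 in the library that had them. Over all H3K27me3 regions the shares were 91%, 70.9%, 90.7%, 74.2%, 77% and 80.4%. With −log10 q of at least 2, regions in both Ctrl libraries numbered 5 without a peak in SR2 and 8 without one in THC. With that limit 0 were in both SR2 and neither THC library. The share over all H3K27me3 regions was not computed at 500 bp or at this −log10 q, so these counts stand without a background. The replicate block gave 1 call for SR2 against Ctrl, Sp8, and changed no other call. In these alternatives the cause was not tested. Of 177 results under alternatives other than a library left out, 135 were classed as unchanged. For ratios and share differences this means the same direction, and for tests the same direction and call. For counts, percentages of regions and the median length it means a value within a set margin of the main one.

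Leaving out 1 library gave 1167 to 2824 regions, a share of 60.5% to 68.6%, 120 to 203 shared regions, a median length of 314 to 326 bp, 48.4% to 50% near a gene and 7.24% to 10.0% on X. Ratios ranged from 0.0796 to 1.0 (SR2 to Ctrl), 0.00958 to 1.19 (THC to Ctrl) and 0.0404 to 3.56 (THC to SR2), and share differences from −17.0 to −12.8, −51.6 to −6.6 and −36.7 to 8.18 points. Within-library differences ranged from −0.342 to −0.274 in length, −24.9 to −17.3 near genes, 5.12 to 6.09 on X and −17.0 to −11.9 in percentile, with 26 to 27 Hox and 26 to 37 other developmental genes and 0 limma calls throughout. Adding centring was not run, since it was already in use. The depth of the H3K27me3 lists is unknown, so a missing peak is not shown to be a missing mark.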
